A study of Mus musculus with 11 samples.

Results

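Voltage-gated and potassium channels are membrane proteins that let calcium, sodium or potassium ions cross the cell membrane. The genes described here are those whose mouse symbol starts with Kcn, Cacna, Cacnb, Cacng, or with Scn or Hcn and a number, with 3 named exceptions that the rule left out. That gave 139 genes, 136 coding for proteins and 3 long noncoding RNAs, out of 24809 gene IDs measured in RNA and 24541 measured in H3K4me3. All 139 were in both tables. They hold pore-forming subunits of calcium channels (9 genes), accessory subunits of calcium channels (16), pores (10) and beta subunits (4) of sodium channels, and 4 HCN channels. The potassium channels comprise 39 voltage-gated (Kv) pore subunits, 13 Kv accessory subunits, 15 inward rectifiers, 14 leak channels with paired pore domains, and 12 subunits of channels opened by calcium or sodium. The 3 noncoding RNAs are Kcnd3os, Kcnmb4os1 and Kcnmb4os2.

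The cells were granulosa cells, the somatic cells around the oocyte, from ovaries of C57BL/6 mice. Mice of the 0 h group were untreated, and mice of the 48 h group had received equine chorionic gonadotropin (eCG) 48 h before collection, a gonadotropin that acts on the receptor of follicle-stimulating hormone (FSH) in mice; the labels name the treatment both eCG and FSH. The RNA data comprise 3 libraries at each time, from mice labelled postnatal day 21, with the cells collected by puncturing follicles, which does not sort out other cell types. H3K4me3, a histone mark found at active gene starts, was measured by chromatin immunoprecipitation and sequencing in 2 libraries per group, for which no age is labelled. Libraries of a group are biological replicates according to the series. The number of a library is used only as its name, since no pairing across groups is stated. Untreated mice were not sampled at 48 h in this design, so eCG, time and collection cannot be told apart.

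Channels of these families set the membrane potential and admit calcium, and each pore-forming subunit works with accessory subunits that change its gating or its delivery to the membrane. Potassium channels hold the membrane negative, calcium and sodium channels depolarise it, and HCN channels open on hyperpolarisation and are eased open by cyclic AMP, the messenger made downstream of the FSH receptor. Granulosa cells are not classed as excitable, but potassium, chloride and calcium currents have been recorded from them, and they are joined to each other and to the oocyte by gap junctions.

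RNA libraries held 12013849 to 26343971 counts and H3K4me3 libraries 11989769 to 17968033. Channel genes took 0.0979% to 0.115% of the RNA counts and 0.231% to 0.247% of the H3K4me3 counts of a library. The summed level of 8 granulosa markers was 15579 to 19386 CPM (read counts normalised to library size) at 0 h and 30247 to 32703 CPM at 48 h, and all 8 were detected. Inha and Gja1 supplied most of this sum, at 17571 and 10778 CPM in 48 h library 1. By the test described below, 6 of the 8 rose, 1 fell and 1 did not pass. Amh was at 718 to 1115 CPM at 0 h and 231 to 569 CPM at 48 h. Libraries of a group differed by more than sampling noise, with a chi-square over genes of 5.16 to 38.5 in RNA and 1.69 and 4 in H3K4me3 per degree of freedom. Markers of other cell types differed between libraries of a group. The summed level of 9 endothelial markers was 97.6 to 102 CPM at 0 h, and it was 565 CPM in 48 h library 1 against 185 and 223 CPM in the other 48 h libraries. Its theca and stroma sum was 7753 CPM against 3708 and 4145 CPM, and its smooth muscle and pericyte sum 533 CPM against 219.6 and 274 CPM. The theca and stroma list includes Cyp11a1 and Star, which granulosa cells also make. Cyp11a1 alone was at 4399 CPM in 48 h library 1 against 2417 and 2858 CPM. Cyp17a1 of that list was at 573 to 1126 CPM at 0 h and 408 to 1482 CPM at 48 h. In other libraries, the red cell sum was 164 CPM in 48 h library 2 against 544 and 685 CPM in 48 h libraries 1 and 3, and the immune sum was 133 CPM in 0 h library 2 against 63.2 and 92.0 CPM in 0 h libraries 1 and 3. Beside the channel results below, values without a library are given where they matter.

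In RNA, 76 of the 139 channel genes had enough counts to be tested. Of these, 11 rose and 14 fell between 0 h and 48 h at an adjusted p under 0.05 by the quasi-likelihood test of edgeR with Benjamini-Hochberg adjustment, the rule for every call below, and 51 did not pass. Among all 14401 genes tested the shares called were 16.0% higher and 15.8% lower, 31.8% together, against 14.5%, 18.4% and 32.9% of the channel genes tested. The median log2 fold change was -0.15 for the channel genes and -0.03 for all genes. With DESeq2's size factors the calls were 12 higher and 10 lower. Scaling by library size alone, which moved the median of all genes to -0.20, gave 10 higher and 21 lower. The count of falls depended on single libraries: it was 5 without 0 h library 2, 5 without 0 h library 3, 4 without 48 h library 2, 4 without 48 h library 3 and 19 without 48 h library 1. Falls over all genes moved as well, from 2282 to 1376, 1273, 1295, 1228 and 2648 in the same order. In 13 genes every 48 h library lay above every 0 h library, and in 19 below, against 22.1% and 25.8% of all genes tested.

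The 63 untested genes were at or near 0. Summed over the 6 libraries, the 63 had a median of 12 and at most 86 counts, 8 of them with 0 counts and 55 with some. They include 19 Kv pore subunits, 10 inward rectifiers, 8 calcium channel accessory subunits and 8 leak channels. In bulk samples such as these, fewer cells of a type and less RNA per cell cannot be told apart.

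In H3K4me3, all 139 genes were tested, 20 rose, 5 fell and 114 did not pass. The shares called among all 24476 genes tested were 6.35% higher and 2.08% lower, 8.42% together, against 14.4%, 3.60% and 18% of the channel genes. Median log2 fold changes were 0.06 for the channel genes and -0.00 for all genes. The rises hold 2 pairs of overlapping genes with near-identical counts, Kcnd3 with Kcnd3os and Kcnmb4 with Kcnmb4os2, so they stand for fewer separate measurements. Scaling by library size alone gave 9 higher and 7 lower. With only 2 libraries a group, the counts also moved with single libraries: 4 rises and 0 falls without 0 h library 1 (18 and 11 at an unadjusted p under 0.05 by edgeR), 8 and 2 without 0 h library 2, 11 and 2 without 48 h library 1, and 18 and 5 without 48 h library 2. Over all genes, rises and falls went from 1554 and 508 to 159 and 123, 902 and 350, 815 and 366, and 2070 and 694 in the same order. Groups of 47 genes did not overlap with 48 h above and of 30 with 48 h below, against 26.5% and 22.8% of all genes. Standard errors and p-values of this assay lean on variation shared across genes.

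**Figure D1:**
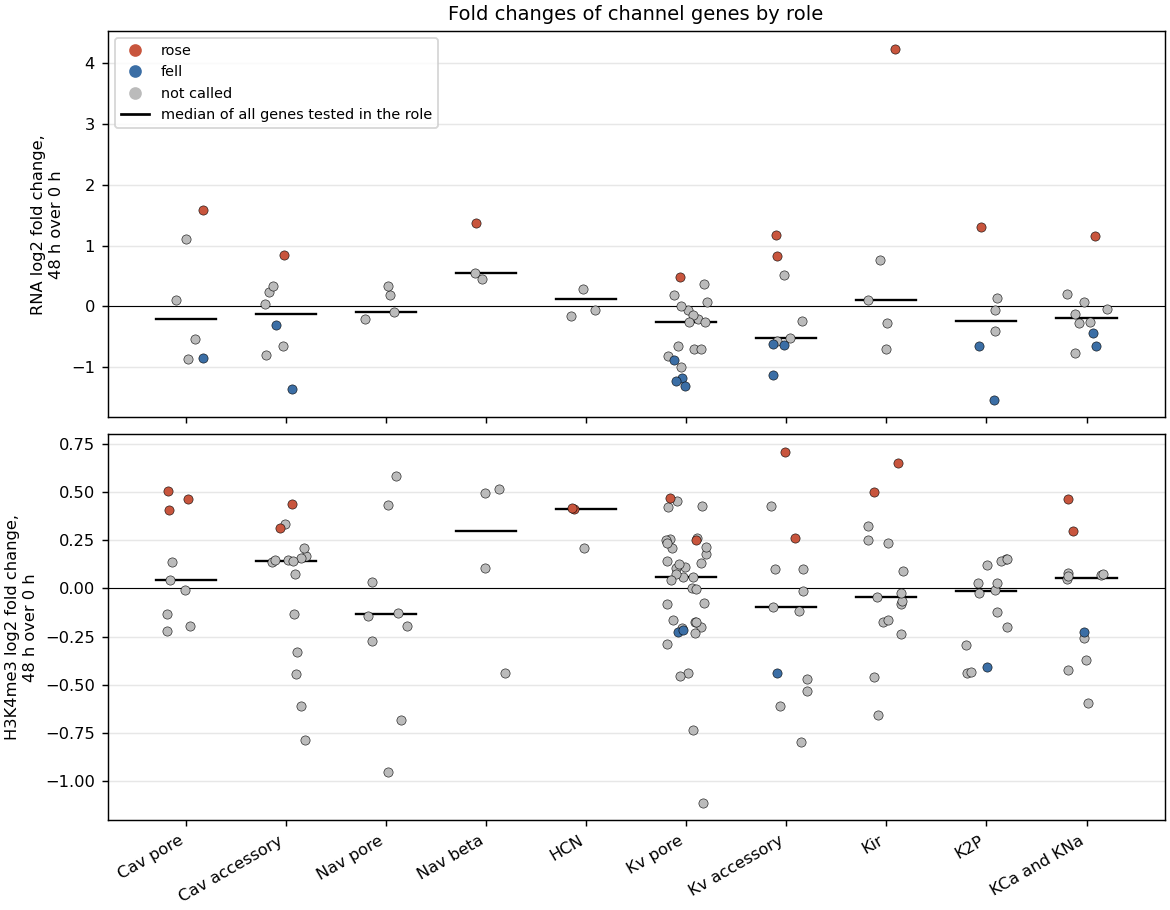
Log2 fold changes (48 h over 0 h, vertical axes) of the channel genes tested, in RNA (upper panel) and H3K4me3 (lower panel, without the 3 noncoding RNAs), 1 point per gene by role, with a line at each role's median and colours for calls (Cav, Nav, Kv, Kir, K2P, KCa and KNa stand for calcium, sodium, voltage-gated potassium, inward rectifier, leak, and calcium- or sodium-activated potassium channels). In RNA, called rises and falls stand side by side in most potassium and calcium channel roles. The point at 4.24 is the inward rectifier Kcnj16, with 4 counts at 0 h and 74 at 48 h. It passed the filter on low counts through its 48 h libraries, so a difference was built into its being tested.

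Of the 76 genes, 11 were called in both assays: 6 rose in both, 3 fell in both and 2 went opposite ways. Genes that rose in both include Kcnh2, the pore of the rapid delayed rectifier of the heart; Kcne2, a single-pass subunit that can join the Kcnh2 pore; Kcnmb4, a beta subunit of the large-conductance calcium-activated potassium channel; and Cacna2d2, an extracellular calcium channel subunit. Those that fell in both were Kcnq5, a pore of the muscarine-sensitive potassium current; Kcnk5, a leak channel opened by alkaline pH; and Kcnt2, a potassium channel opened by intracellular sodium. Kcnt1, the relative of Kcnt2, and Cacnb3, a cytoplasmic beta subunit of calcium channels, fell in RNA and rose in H3K4me3. Among all genes, 850 were called in both assays, and 735 of them (86.5%) moved the same way.

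RefSeq's promoter windows (build GRCm38.p6, 250 bases before to 50 after an annotated start) were at hand for 7 of these 11 genes, and they are shown to let the sequence be read beside the H3K4me3 values. Bases are 5′ to 3′ on the gene's strand, and capitals mark CpG dinucleotides, the sites of DNA methylation that cluster in many promoters marked by H3K4me3. For genes with more than 1 window the one with most CpG is given. The 4 that rose in both assays follow: Kcnh2 (chr5:24329542-24329841, minus strand, 19 CpG), Kcnmb4 (chr10:116473474-116473773, minus, 48 CpG), Cacna2d2 (chr9:107399630-107399929, plus, 43 CpG) and Kcne2 (chr16:92292139-92292438, plus, 9 CpG). The windows of Kcnh2, Kcnmb4 and Cacna2d2 are at a start inside the gene, and that of Kcne2 is at the gene's outermost start.
Kcnh2: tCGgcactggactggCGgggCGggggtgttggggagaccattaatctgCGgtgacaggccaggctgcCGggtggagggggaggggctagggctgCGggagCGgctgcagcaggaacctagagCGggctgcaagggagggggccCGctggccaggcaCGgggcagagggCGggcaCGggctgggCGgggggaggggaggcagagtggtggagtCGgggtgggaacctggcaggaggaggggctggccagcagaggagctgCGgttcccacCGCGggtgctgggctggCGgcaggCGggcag
Kcnmb4: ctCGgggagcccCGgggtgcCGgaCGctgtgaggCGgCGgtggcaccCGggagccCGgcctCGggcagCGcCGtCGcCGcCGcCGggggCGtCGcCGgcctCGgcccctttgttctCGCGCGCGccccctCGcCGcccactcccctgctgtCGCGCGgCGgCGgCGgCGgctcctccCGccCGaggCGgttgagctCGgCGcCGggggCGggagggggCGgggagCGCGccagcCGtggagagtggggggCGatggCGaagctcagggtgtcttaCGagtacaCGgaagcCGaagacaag
Cacna2d2: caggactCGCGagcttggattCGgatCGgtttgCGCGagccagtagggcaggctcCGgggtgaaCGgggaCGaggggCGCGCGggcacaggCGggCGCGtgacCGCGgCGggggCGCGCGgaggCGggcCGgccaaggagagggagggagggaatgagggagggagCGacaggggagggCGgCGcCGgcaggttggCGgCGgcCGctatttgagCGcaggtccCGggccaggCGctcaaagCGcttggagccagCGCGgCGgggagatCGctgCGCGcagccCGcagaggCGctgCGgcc
Kcne2: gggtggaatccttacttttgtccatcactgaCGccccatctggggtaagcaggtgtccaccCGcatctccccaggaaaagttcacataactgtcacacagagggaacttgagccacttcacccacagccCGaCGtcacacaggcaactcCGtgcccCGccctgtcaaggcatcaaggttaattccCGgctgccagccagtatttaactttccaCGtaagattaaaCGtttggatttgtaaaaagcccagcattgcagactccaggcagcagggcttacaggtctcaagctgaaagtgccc

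Kcnq5 (chr1:21961893-21962192, minus strand, 20 CpG) and Kcnk5 (chr14:20181733-20182032, minus, 26 CpG) fell in both assays, and Cacnb3 (chr15:98634517-98634816, plus, 29 CpG) fell in RNA and rose in H3K4me3. The windows of Kcnq5 and Cacnb3 are at a start inside the gene, and that of Kcnk5 is at the gene's outermost start.
Kcnq5: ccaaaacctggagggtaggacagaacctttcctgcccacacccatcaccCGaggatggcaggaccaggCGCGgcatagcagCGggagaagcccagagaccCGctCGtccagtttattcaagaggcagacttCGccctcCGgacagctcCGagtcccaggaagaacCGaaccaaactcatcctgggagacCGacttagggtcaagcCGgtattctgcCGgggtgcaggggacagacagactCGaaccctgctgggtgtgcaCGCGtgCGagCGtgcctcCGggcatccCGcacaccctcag
Kcnk5: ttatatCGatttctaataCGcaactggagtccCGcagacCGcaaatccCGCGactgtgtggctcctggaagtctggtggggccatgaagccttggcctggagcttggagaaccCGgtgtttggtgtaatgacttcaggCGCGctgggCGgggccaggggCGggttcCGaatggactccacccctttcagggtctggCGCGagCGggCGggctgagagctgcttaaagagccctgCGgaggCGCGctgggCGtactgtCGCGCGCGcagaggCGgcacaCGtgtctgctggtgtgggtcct
Cacnb3: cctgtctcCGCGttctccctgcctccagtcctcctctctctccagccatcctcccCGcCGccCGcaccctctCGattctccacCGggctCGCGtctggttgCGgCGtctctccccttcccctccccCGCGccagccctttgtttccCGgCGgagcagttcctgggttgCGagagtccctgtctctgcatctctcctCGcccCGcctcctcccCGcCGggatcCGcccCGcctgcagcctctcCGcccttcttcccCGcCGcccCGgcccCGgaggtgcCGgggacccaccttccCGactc
The 7 windows ranged from 9 CpG and 53.0% G and C in Kcne2 to 48 CpG and 79.0% in Kcnmb4. The other windows of Kcne2, Kcnq5 and Cacnb3 held 1, 3 and 7 CpG, and that of Kcnq5 is at the gene's outermost start. The Kcne2 window alone of the 7 held the core of the cyclic AMP response element, TGACG on either strand, with 2 matches.

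HCN channels pass sodium and potassium and are best known as pacemaker channels of heart and brain. In RNA, Hcn2 and Hcn3 did not pass, with log2 fold changes of -0.05 and 0.28. In H3K4me3, Hcn2 rose from 17.5 and 17.3 to 24.1 and 22.2 CPM (log2 0.41 ± 0.11, adjusted p = 0.0104), and Hcn4 rose from 26.5 and 24.8 to 32.1 and 36.5 CPM (log2 0.42 ± 0.09, adjusted p = 0.00173). Neither gene overlapped between groups in this assay. Hcn3 had a log2 fold change of 0.21 and did not pass. The Hcn2 call in H3K4me3 was lost without 0 h library 1 (adjusted p = 0.367), 0 h library 2 (0.0853) or 48 h library 1 (0.0816), with library size only (0.0646) and with DESeq2 (0.108), and that of Hcn4 without 0 h library 1 (0.173).

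Calcium channel pores gave 1 rise and 1 fall among the 6 tested. Cacna1a (gene ID 12286; chromosome 8, 84338631 to 84640251), the P/Q-type pore best known from nerve terminals, was at 31.4, 37.4 and 32.3 CPM at 0 h and at 82.4, 109.5 and 111 CPM at 48 h. The lowest 48 h library was more than double the highest at 0 h, and the log2 fold change was 1.58 ± 0.13 (adjusted p = 2.04e-04), a call that held under every alternative run. H3K4me3 counts of Cacna1a were 21.3 and 19.5 CPM at 0 h and 18.7 and 22 CPM at 48 h, with a log2 fold change of -0.01 ± 0.11 (adjusted p = 0.979). Cacna1c, the main L-type pore of heart and smooth muscle, went from 10.2, 11.8 and 12.3 to 9.05, 4.64 and 5.40 CPM (log2 -0.86 ± 0.24, adjusted p = 0.0273). Its 48 h library 1 lay nearest to the 0 h values without reaching them. Cacna1c overlaps Dcp1b, which also fell (log2 -0.39, adjusted p = 0.0457), and its own call was lost without 0 h library 2 (0.0755), 0 h library 3 (0.0955), 48 h library 2 (0.109) or 48 h library 3 (0.115). The T-type pore Cacna1h was at 74.3 ± 16.5 and 80.3 ± 22.2 CPM in RNA (mean ± SD, n = 3, adjusted p = 0.731), while its H3K4me3 rose from 42.3 and 37.5 to 56.8 and 53.7 CPM (log2 0.46 ± 0.08, adjusted p = 4.09e-05), also under every alternative run. The N-type pore Cacna1b, untested in RNA, rose in H3K4me3 from 10.8 and 9.81 to 14.8 and 14.7 CPM (log2 0.51 ± 0.14, adjusted p = 0.0141), a call lost without 0 h library 1 (0.290) or 2 (0.149), with library size only (0.0732), with the mean CPM filter (0.0508) and with DESeq2 (0.107).

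Among the accessory subunits of calcium channels, 1 rose and 2 fell of 8 tested. Cacna2d2, whose product carries calcium channels to the membrane, rose from 3.54, 2.27 and 3.69 to 6.52, 5.52 and 5.05 CPM (log2 0.85 ± 0.24, adjusted p = 0.0279), with no overlap between groups. Cacnb1 (gene ID 12295; chromosome 11, 98001508 to 98023034), the beta subunit of skeletal muscle, fell from 8.74, 10.5 and 11.9 to 4.75, 3.24 and 4.35 CPM (log2 -1.36 ± 0.21, adjusted p = 0.00199). All 48 h libraries of Cacnb1 were below the 0 h libraries, and the call held under every alternative run; the gene overlaps the ribosomal protein gene Rpl19, which did not pass. Cacnb3 fell from 39.8, 44.4 and 42.6 to 33.0, 34.4 and 35.3 CPM (log2 -0.31 ± 0.08, adjusted p = 0.0248), again without overlap. Its H3K4me3 went the other way, from 41.8 and 40.0 to 55.7 and 46.4 CPM (log2 0.31 ± 0.08, adjusted p = 0.00904). Cacna2d1, the alpha2-delta subunit bound by gabapentin, was at 95.4 ± 2.41 and 112 ± 8.68 CPM (SD, n = 3) and did not pass (adjusted p = 0.0613), though it did without 48 h library 2 (0.0458), with DESeq2's size factors (0.0479) and with DESeq2 (0.0393). In RNA the Cacna2d2 call was lost without 0 h library 2 (0.0687) or without 48 h library 1 (0.0562), 2 (0.0696) or 3 (0.0527). The Cacnb3 RNA call was lost without 0 h library 2 (0.113) or 3 (0.0903) or 48 h library 2 (0.0806) or 3 (0.0721). In H3K4me3 both calls were lost without 0 h library 1 (0.124 for Cacna2d2, 0.296 for Cacnb3), 0 h library 2 (0.136 and 0.0975) or 48 h library 1 (0.0540 and 0.338), and with DESeq2 (0.0639 and 0.11).

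Sodium channel pores, which carry the upstroke of action potentials in nerve and muscle, gave 0 calls among 5 tested in RNA by edgeR. There were also 0 by DESeq2 and 0 at an unadjusted p under 0.05, with log2 fold changes from -0.35 to 0.34. All 5 were low, with group means of 0.547 to 3.47 CPM. Since 31.8% of all genes tested were called, 5 genes are too few to read a lack of response from. Of 3 beta subunits tested, Scn3b, which modulates sodium channel gating, rose from 1.29, 1.73 and 1.58 to 6.13, 3.64 and 2.18 CPM (log2 1.37 ± 0.38, adjusted p = 0.0244). Groups did not overlap, but 48 h library 1 was far above the other 48 h libraries. Without it the log2 fold change was 0.94 and the adjusted p 0.0539, and the call was also lost without 0 h library 1 (0.0685), 2 (0.0510) or 3 (0.0736) or 48 h library 2 (0.0572).

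**Figure D2:**
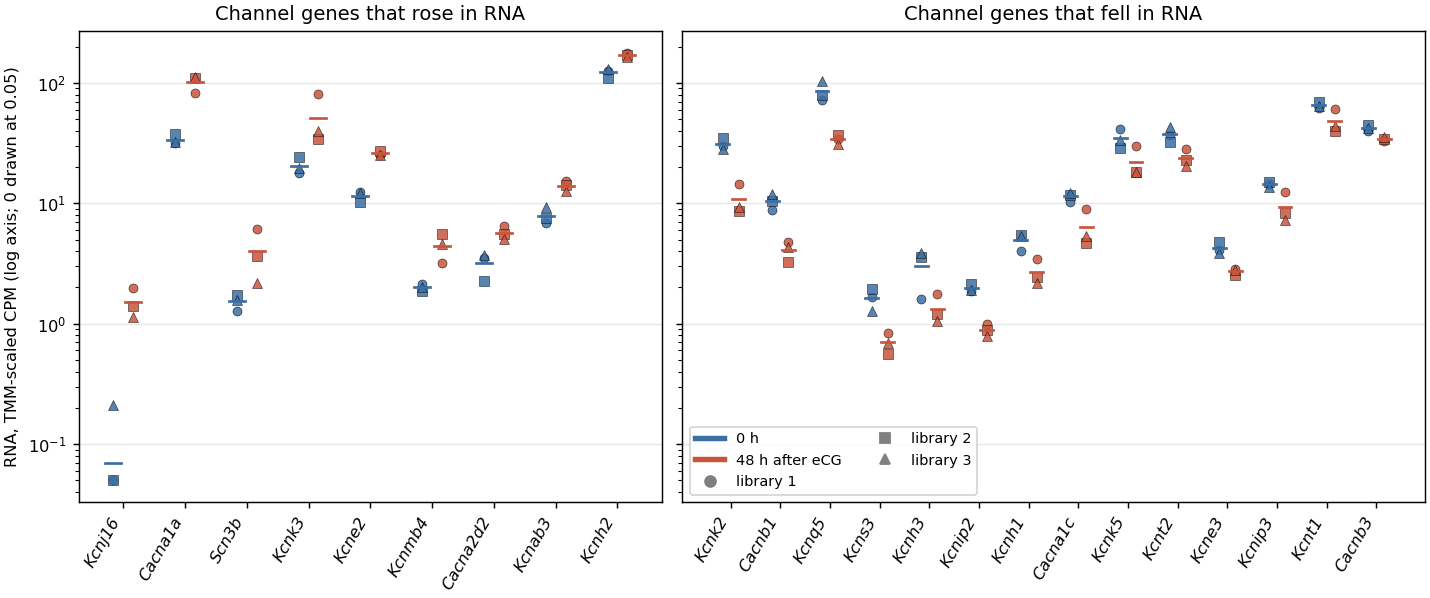
RNA level in CPM (vertical log axis) of channel genes called, 1 point per library with a bar at each group's mean, 0 h and 48 h side by side. Cacna1a and Kcne2 are separated between groups, and 48 h library 1 stands above the other 48 h libraries for Kcnk3 and Scn3b.

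Voltage-gated potassium channel pores gave 2 rises and 4 falls among 20 tested. Kcnh2 (gene ID 16511; chromosome 5, 24319589 to 24351684) was at 126, 109 and 131 CPM at 0 h and at 178, 172 and 164 CPM at 48 h, with no overlap (log2 0.49 ± 0.09, adjusted p = 0.00552). Its H3K4me3 rose from 61.7 and 59.2 to 86.4 and 81.1 CPM (log2 0.47 ± 0.07, adjusted p = 7.12e-06). Both Kcnh2 calls held under every alternative run.

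The largest fall of a Kv pore was that of Kcnq5 (gene ID 226922; chromosome 1, 21398399 to 21962650). Its RNA went from 72.7, 79.2 and 104 to 34.1, 37.2 and 31.0 CPM (log2 -1.32 ± 0.14, adjusted p = 5.12e-04). The highest 48 h library lay well below the lowest 0 h library, and the call held under every alternative run. Its H3K4me3 fell less, from 134 and 147 to 123 and 118 CPM (log2 -0.22 ± 0.07, adjusted p = 0.0416), a call lost when 0 h library 1 (0.0968) or 2 (0.403) or 48 h library 1 (0.0766) or 2 (0.184) was left out, and with DESeq2 (0.0792). Kcns3, a pore-like subunit that is silent alone, went from 1.67, 1.93 and 1.27 to 0.843, 0.560 and 0.697 CPM (log2 -1.24 ± 0.33, adjusted p = 0.0215). Kcnh1, an ether-a-go-go pore, went from 4.05, 5.48 and 5.33 to 3.45, 2.44 and 2.18 CPM (log2 -0.89 ± 0.25, adjusted p = 0.0269). Neither Kcns3 nor Kcnh1 overlapped between groups. Kcnh3, another pore of that family, went from 1.61, 3.61 and 3.85 to 1.76, 1.20 and 1.04 CPM (log2 -1.19 ± 0.38, adjusted p = 0.0442), and here 0 h library 1 lay below 48 h library 1. Kcnh3 overlaps Mcrs1, which did not pass. The calls of Kcns3, Kcnh1 and Kcnh3 were lost without 0 h library 2 (0.0793, 0.0823 and 0.126), 48 h library 2 (0.104, 0.111 and 0.149) or 48 h library 3 (0.0770, 0.112 and 0.153), and those of Kcnh1 and Kcnh3 also without 0 h library 3 (0.0982 and 0.159). DESeq2 ended the call of Kcns3 (0.0577), and its size factors that of Kcnh3 (0.0517).

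Kv accessory subunits gave 2 rises and 3 falls among 9 tested. Kcne2 (gene ID 246133; chromosome 16, 92292389 to 92298133) rose from 12.3, 10.2 and 12.2 to 25.3, 27.4 and 25.3 CPM (log2 1.17 ± 0.11, adjusted p = 3.39e-04), with replicates close together at both times and no overlap. Its H3K4me3 rose from 4.35 and 4.57 to 7.20 and 7.35 CPM (log2 0.71 ± 0.21, adjusted p = 0.0215), a call lost without each single library (adjusted p from 0.0636 to 0.428), with library size only (0.0713) and with DESeq2 (0.122). Kcnab3, a cytoplasmic beta subunit related to aldo-keto reductases, rose in RNA from 6.82, 7.56 and 9.23 to 15.3, 14.1 and 12.6 CPM (log2 0.83 ± 0.16, adjusted p = 0.00498). The RNA calls of Kcne2 and Kcnab3 held under every alternative run. Kcnip2, a calcium-binding partner of Kv pores, went from 1.86, 2.12 and 1.90 to 0.997, 0.880 and 0.784 CPM without overlap (log2 -1.14 ± 0.27, adjusted p = 0.0140). Kcnip3 of the same family, also known as a calcium-binding transcription repressor, had a log2 fold change of -0.63 (adjusted p = 0.0362), and the small subunit Kcne3 one of -0.65 (adjusted p = 0.0463). Calls were lost for Kcnip2 without 0 h library 2 (0.0503), 48 h library 2 (0.0631) or 48 h library 3 (0.0664), for Kcnip3 without any library but 48 h library 1 (0.0763 to 0.149), and for Kcne3 without any 1 of the 6 (0.0562 to 0.157), with DESeq2 (0.0856) or its size factors (0.0520), and with no filter (0.0660). Kcnab1, another beta subunit, was at 8.14 and 5.53 CPM in RNA (log2 -0.57, adjusted p = 0.0833) and fell in H3K4me3 from 33.8 and 31.4 to 23.5 and 24.8 CPM (log2 -0.44 ± 0.09, adjusted p = 0.00101). The H3K4me3 call of Kcnab1 was lost without 0 h library 1 (0.241), and its RNA passed without 48 h library 1 (0.0303) and with library size only (0.0232).

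Of 5 inward rectifiers tested, which pass potassium more easily into than out of the cell, Kcnj16 (gene ID 16517; chromosome 11, 110968033 to 111027968) rose. It had 0, 0 and 0.211 CPM at 0 h and 1.99, 1.40 and 1.13 CPM at 48 h, that is 4 counts against 74. The ratio, corrected for depth, was 20.5 with an exact 95% interval of 7.66 to 77.1 that covers counting error only (fitted log2 fold change 4.24 ± 0.76, adjusted p = 0.00402). The gene passed the filter on low counts through its 48 h libraries, so a difference was built into its being tested. Its H3K4me3 was near background, with means of 1.58 and 0.981 CPM. Kcnj3, a rectifier opened by G proteins, was at 50.4 ± 11.3 and 53.9 ± 2.58 CPM (SD, n = 3, adjusted p = 0.651). Kcnj11 and Kcnj4, too low in RNA to be tested, had mean H3K4me3 levels of 6.51 and 13.4 CPM. These lie below the background limit of 17.5 CPM described further down. The calls of both in H3K4me3 were rises, by log2 folds of 0.65 ± 0.20 (adjusted p = 0.0301) and 0.50 ± 0.14 (adjusted p = 0.0125). Both were lost without 0 h library 1 (0.571 and 0.270), Kcnj11 also without 48 h library 1 (0.272) and Kcnj4 without 0 h library 2 (0.148). Library size only (0.0941 and 0.0696) and DESeq2 (0.158 and 0.101) also ended both, and the mean CPM filter that of Kcnj11 (0.0590).

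Leak channels, which keep a steady potassium conductance, held some of the largest changes, with 1 rise and 2 falls among 6 tested. Kcnk2 (gene ID 16526; chromosome 1, 189207930 to 189402782), opened by stretch and by lipids, went from 29.96, 34.7 and 28.3 to 14.3, 8.64 and 9.32 CPM (log2 -1.54 ± 0.19, adjusted p = 8.65e-04), the largest fall of the channel genes called. Kcnk3 (gene ID 16527; chromosome 5, 30588170 to 30625270), closed by acid outside the cell, went from 17.9, 24.1 and 19.6 to 80.6, 34.0 and 39.5 CPM (log2 1.31 ± 0.30, adjusted p = 0.0116). Neither gene overlapped between groups, both calls held under every alternative run, and for both 48 h library 1 was the highest 48 h library. Without that library the log2 fold change of Kcnk3 was 0.83 (adjusted p = 0.00337). H3K4me3 did not pass for either gene, with log2 fold changes of -0.44 ± 0.23 for Kcnk2 and 0.03 ± 0.14 for Kcnk3. Kcnk5 went from 41.2, 29.1 and 33.7 to 29.8, 18.2 and 18.1 CPM (log2 -0.66 ± 0.21, adjusted p = 0.0399), where 48 h library 1 overlapped the 0 h libraries. Its H3K4me3 fell from 67.0 and 64.8 to 47.3 and 51.8 CPM without overlap (log2 -0.41 ± 0.07, adjusted p = 1.22e-04). The RNA call of Kcnk5 was lost without 0 h library 1 (0.121) or 3 (0.0984) or 48 h library 2 (0.159) or 3 (0.157) and with DESeq2's size factors (0.0532), and its H3K4me3 call without 0 h library 1 (0.0754).

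Among channels opened by calcium or sodium, 1 gene rose and 2 fell of 10 tested. Kcnmb4 rose from 2.12, 1.88 and 2.01 to 3.22, 5.52 and 4.62 CPM in RNA (log2 1.16 ± 0.26, adjusted p = 0.0108) and from 35.2 and 34.2 to 49.9 and 46.2 CPM in H3K4me3 (log2 0.47 ± 0.08, adjusted p = 5.45e-05), without overlap in either. Kcnt2 fell from 36.6, 32.2 and 43.4 to 28.3, 22.9 and 20.5 CPM (log2 -0.65 ± 0.15, adjusted p = 0.0115) and in H3K4me3 from 73.2 and 79.5 to 66.1 and 64.3 CPM (log2 -0.22 ± 0.07, adjusted p = 0.0406). The groups of Kcnt2 did not overlap in either assay. Kcnt1 fell from 61.5, 69.7 and 64.0 to 60.3, 39.9 and 43.5 CPM in RNA (log2 -0.45 ± 0.15, adjusted p = 0.0479), where 48 h library 1 lay just below the 0 h libraries, and its H3K4me3 rose from 26.1 and 25.1 to 32.6 and 30.6 CPM (log2 0.30 ± 0.09, adjusted p = 0.0300). Kcnma1, the large-conductance pore that Kcnmb4 joins, was at 31.8 and 26.8 CPM (log2 -0.25, adjusted p = 0.227) and passed as lower without 48 h library 1 (adjusted p = 0.00753) and with library size only (0.0439). Kcnmb4 was lost in RNA without 48 h library 2 (0.0506) and in H3K4me3 without 0 h library 1 (0.0589). The RNA call was lost for Kcnt2 without 0 h library 3 (0.0511), 48 h library 2 (0.0549) or 48 h library 3 (0.0548), and for Kcnt1 without any library but 48 h library 1 (0.0736 to 0.202) and with DESeq2's size factors (0.0695). In H3K4me3, the calls of Kcnt2 and Kcnt1 were lost without 0 h library 1 (0.155 and 0.416), 0 h library 2 (0.366 and 0.203) or 48 h library 1 (0.0529 and 0.173), and that of Kcnt2 without 48 h library 2 (0.0998). DESeq2 ended both (0.138 and 0.207), and library size only (0.131), no filter (0.0542) and the mean CPM filter (0.0773) that of Kcnt1.

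**Figure D3:**
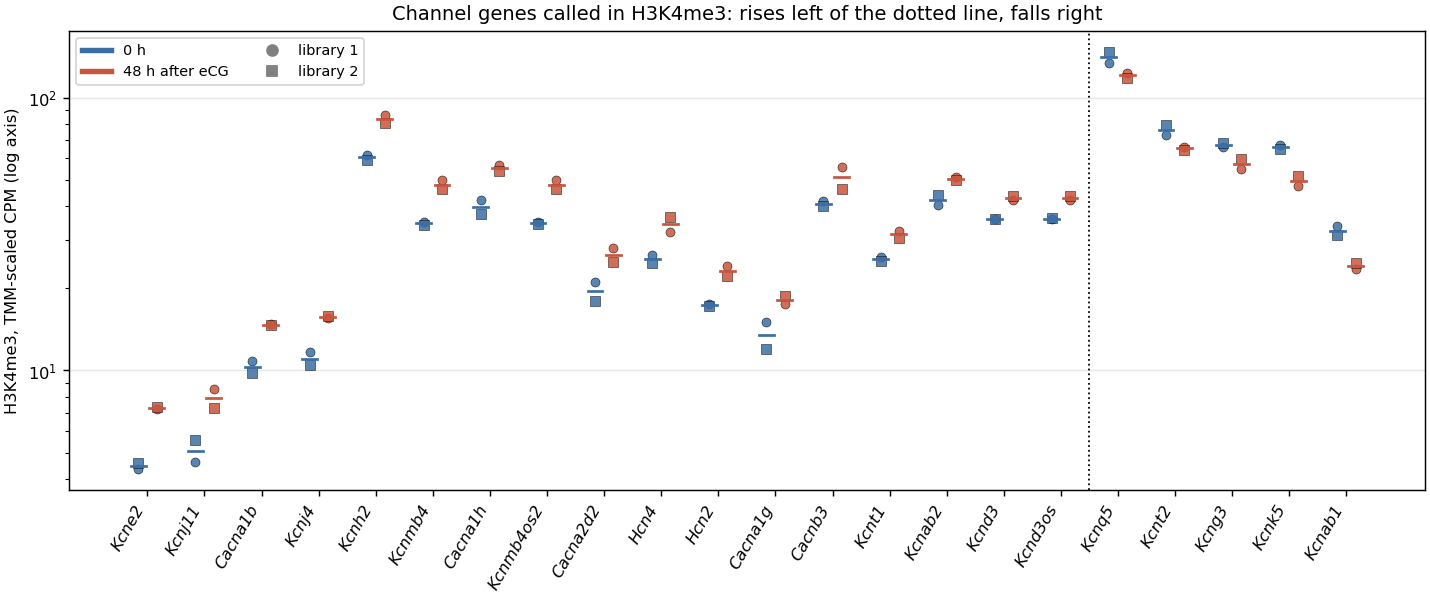
H3K4me3 level in CPM (vertical log axis) of the channel genes called, 1 point per library with a bar at each group's mean. Kcnh2 goes from 61.7 and 59.2 CPM at 0 h to 86.4 and 81.1 CPM at 48 h, and Kcnk5 is lower at 48 h in both libraries.

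The library 48 h library 1 was high for many channel genes. In it, 32 of the 76 tested (42.1%) were more than 1.5 times the mean of the other 48 h libraries, against 12.5% of all genes tested, and the median ratio was 1.40 against 1. Kcnj8, a rectifier pore known from pericytes, shows this without a call: it was at 9.66 CPM there and at 3.60 and 4.35 CPM in the other 48 h libraries. Scn7a, a sodium channel of glia and other cells, was at 6.29 CPM there against 1.56 and 2.26 CPM. Besides the endothelial, theca and smooth muscle sums above, the oocyte sum was 95.8 CPM in this library, 42.3 and 43.6 CPM in the other 48 h libraries and 87.0 to 97.8 CPM at 0 h. Of the marker genes of other cell types, 8 of 9 endothelial, 3 of 7 theca and stroma and 2 of 9 smooth muscle and pericyte genes rose. So did 3 of 5 red cell and 2 of 9 neuron and glia genes, while 3 of 9 oocyte genes fell and 1 rose. The theca and stroma list holds genes that granulosa cells also make, as given above. Red cell markers ran from 68.5 to 129 CPM at 0 h and from 164 to 685 CPM at 48 h, with Hba-a1 and Hbb-bs at 0, and neuron and glia markers from 66.8 to 80.3 and from 113 to 139 CPM. Immune markers ran from 63.2 to 133 and from 59.9 to 115 CPM. The part of these other cell types in the channel values was not tested.

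**Figure D4:**
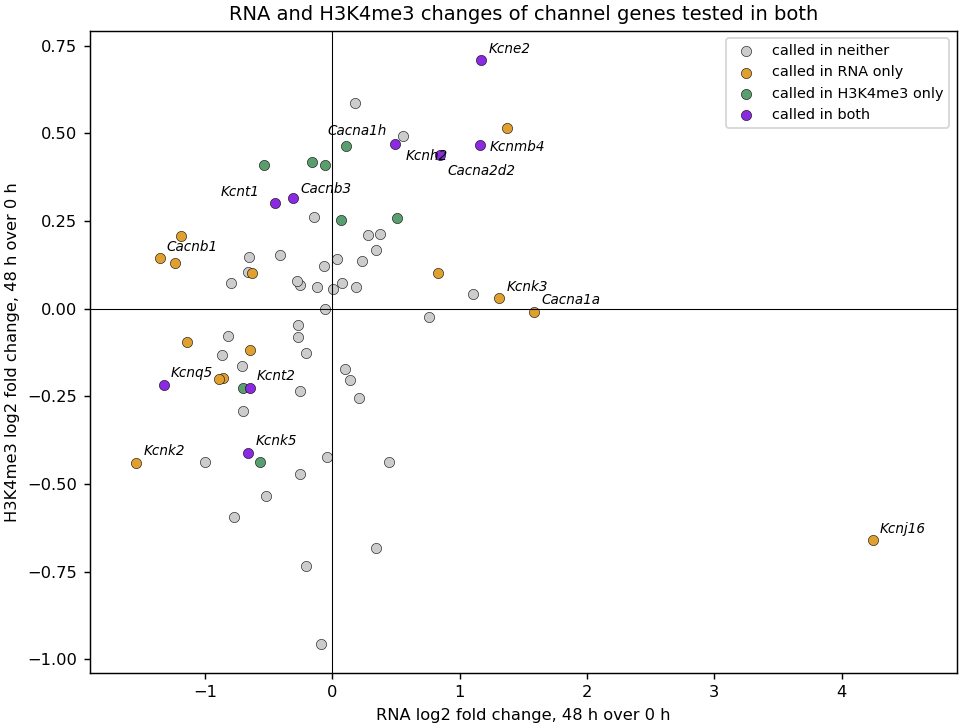
Log2 fold change in H3K4me3 (vertical) against that in RNA (horizontal), 48 h over 0 h, for channel genes tested in both, 1 point per gene, coloured by the assay in which it was called. Kcne2 and Kcnmb4 are at the upper right, Kcnk5 and Kcnq5 at the lower left, and Cacna1a and Kcnk3 lie far right at no H3K4me3 change that passed.

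Across the 76 genes tested in both assays, 42 were called in neither, 14 in RNA only, 9 in H3K4me3 only and 11 in both. Of the channel genes 0 rose in RNA and fell in H3K4me3, as did 10 of all genes. The fold changes of the 2 assays had a Spearman rho of 0.35 over these 76 genes and 0.26 over 14357 genes, as a description across genes, which share libraries and are not replicates. The 5 that rose in RNA without an H3K4me3 call were Cacna1a, Kcnab3, Kcnj16, Kcnk3 and Scn3b. The 7 that rose in H3K4me3 without an RNA call include Cacna1g, Cacna1h, Hcn2, Hcn4, Kcnab2 and Kcnd3, and the 2 that fell so were Kcnab1 and Kcng3. The H3K4me3 counts of Kcnab2 are close to those of its neighbour Nphp4, so these genes may share reads. The same holds for Kcnab3 with Cntrob and Trappc1, and for Kcnk3 with Gm9899. Of the 9, the H3K4me3 calls of Kcnd3, Kcnab2 and Kcng3 were lost without 0 h library 1 (0.517, 0.601 and 0.310), 0 h library 2 (0.174, 0.0554 and 0.252) or 48 h library 1 (0.0529, 0.0919 and 0.292), and that of Cacna1g without 0 h library 1 (0.210), 0 h library 2 (0.385) or 48 h library 2 (0.0817). Library size only (0.0966 and 0.139), the mean CPM filter (0.0541 and 0.0974) and DESeq2 (0.196 and 0.192) also ended the calls of Kcnab2 and Cacna1g, and DESeq2 that of Kcng3 (0.169). The call of Kcnd3 was lost under all 10 alternatives (0.0529 to 0.517).

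Many channel genes had little H3K4me3. The 95th percentile of the 5129 genes with no RNA count, 17.5 CPM, was taken as a background limit, and 41 channel genes lay above it. Above the limit were 7 of the 11 that rose in RNA and 9 of the 14 that fell. So were 20 of the 51 that did not pass (39.2%). The share among all genes tested in RNA was 79.8%. Among the 63 untested genes, which that share does not cover, 5 (7.94%) lay above the limit. By its definition, few genes with no RNA count exceed the limit. The 5 untested genes above it were Kcna3, Kcna4, Kcnd3os, Kcnh8 and Kcnmb4os2. Of the 25 genes called in RNA, 9 lay below the limit (Cacna1c, Kcne2, Kcnh1, Kcnip2, Kcnip3, Kcnj16, Kcnk2, Kcnk3 and Scn3b), at levels that genes with no RNA count also reach. Some genes that rose in H3K4me3 without an RNA call lay below it as well. Among them were Cacna1b, Cacna1g, Kcnj11 and Kcnj4, at means of 12.5, 15.8, 6.51 and 13.4 CPM.

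Promoter windows were matched for 102 of the 139 genes, 137 windows in all. The median CpG number in a gene's richest window was 16 for channel genes and 8 for all 27025 genes with a window. These sets are unlike: the 27025 are not limited to genes measured here and had 32851 windows. A gene with more windows also has more chances of a rich one. Channel genes with 0 to 9 CpG (39 genes) had a median of 2.38 CPM of H3K4me3 and 2 lay above the limit. Those with 10 to 19 CpG (22 genes) had 8.29 CPM and 8 above it, and those with 20 or more (41 genes) had 20.1 CPM and 21 above it. Over the 102 genes, CpG number and H3K4me3 had a Spearman rho of 0.51, as a description over genes that share their libraries.

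Short motifs of factors that act in granulosa cells were searched on both strands of the windows. The cyclic AMP response element TGACGTCA was in 0 of the 137 channel gene windows and in 1.79% of all 32851 windows. Its core TGACG, which the full site contains, was in 24 (17.5%) against 20.8% of all. The site CAAGGTCA of NR5A nuclear receptors was in 2 (1.46% against 1.56%), and the AP1 site TGANTCA in 5 (3.65% against 7.81%), those of Kcne3, Kcnip3 and Kcnk2 among them. A match is a string of letters and not a bound site.

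Genes that work with these channels were counted from 3 lists, to be read against the 16.0% higher and 15.8% lower of all genes tested in RNA. Of 22 tested channel partners, 6 rose, 5 fell and 11 did not pass, with a median log2 fold change of -0.14. Dpp10, a partner of Kv pores, rose from 2.76 to 14.3 CPM (log2 2.37, adjusted p = 0.00153) and by 0.54 in H3K4me3, and its relative Dpp6 rose by 1.53 in RNA. Ank3, a scaffold that anchors sodium channels and Kv channels, fell from 235 to 138 CPM (log2 -0.77) and in H3K4me3 by a log2 fold of -0.61. Gem, a small GTPase that restrains calcium channels, fell in both (log2 -1.16 and -0.48), whereas its relative Rem1 rose in both (1.95 and 0.70).

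Of 25 other cation and chloride channels tested, 7 rose, 1 fell and 17 did not pass (median 0.26). The stretch-activated channel Piezo2 rose in both assays (1.33 and 0.38), Trpv4 rose in RNA by 1.08, and the chloride channel Clcn2 fell (-0.74). Of 20 genes tested for calcium release from stores, store-operated entry and calcium-dependent signalling, 8 rose, 1 fell and 11 did not pass (median 0.22). Stim1 and Orai1, the sensor and pore of store-operated calcium entry, rose in RNA by 0.73 and 0.44 and in H3K4me3 by 0.23 and 0.28. The ryanodine receptor Ryr1, a calcium release channel, rose by 1.6, and the kinase Camk2d fell (-0.42). As reference genes of the FSH response, Lhcgr, Cyp19a1, Fshr and Inhba, 4 in number, all rose in RNA and 3 of them in H3K4me3.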

How the data were processed

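The channel genes, their role groups and the gene lists were chosen with earlier results of these data known, so counts over them are descriptions. The authors deposited 2 tables of raw counts per Entrez gene ID, 1 for RNA and 1 for H3K4me3; both hold whole numbers with no normalization that the values show. The tools listed for ChIP-seq, per the submitters' processing notes, are Trimmomatic, Bowtie2 2.2.9, MACS2 2.2 and ChIPseeker 1.18.0. Those listed for RNA are STAR, kallisto, sleuth, Picard and FastQC 0.11.5, and both list build mm10. How reads were assigned to genes, with or without strand, and over which window in H3K4me3, is not given in the sources used here, so reads of overlapping and antisense genes cannot be told apart, and an H3K4me3 value belongs to the gene ID, not to a known promoter window. H3K4me3 columns were tied to a group by name, and their numbers were used only to name libraries. The input DNA library was not used here. Symbols and coordinates came from RefSeq (GRCm38.p6), with a symbol for 24742 RNA and 24472 H3K4me3 IDs.

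For RNA and H3K4me3 separately, the 48 h and 0 h libraries were compared over the whole table with edgeR 4.0.16 in R 4.3.3, using its quasi-likelihood test after filterByExpr and TMM scaling; genes with a Benjamini-Hochberg adjusted p under 0.05 were called, whatever their fold change. CPM values use the TMM scaling, and SE values come from the test statistic. The biological coefficient of variation was 0.141 in RNA and 0.0465 in H3K4me3. Scripts were tested on simulated data. Alternatives were DESeq2's size factors, library size only, no filter, a mean CPM filter, DESeq2 1.42.0, the replicate number as a block, and each library left out. Genes named were those called in RNA (the 14 largest each way), with each library's value for the 8 largest each way at a mean of at least 1 CPM, in H3K4me3 the 8 largest each way, those called in both assays, and the 3 with most counts in each role; other genes, and further values by library, were chosen after their values were seen. Levels are compared within a gene, since no gene lengths were used. Some genes counted in the totals are not reported here by name and are left out of the figures.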

Additional observations from a re-analysis of the deposited data

How the results depend on the processing

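No channel gene called in either assay changed direction under an alternative. Rises in RNA, 11 as reported, were 8 to 12 under all alternatives (8 to 10 with 1 library left out). Falls in RNA, 14 as reported, were 4 to 19 with 1 library left out, and 21 with library size only. Rises in H3K4me3, 20 as reported, were 9 with library size only, 12 with the mean CPM filter, 7 with DESeq2, and 4 to 18 with 1 library left out; falls there, 5 as reported, were 8 with the mean CPM filter, 2 with DESeq2, 7 with library size only and 0 to 5 with 1 library left out. With the replicate block, 8 rises and 7 falls were called in RNA and 10 and 3 in H3K4me3. The lists of lost calls for single genes above leave this block out. RNA calls it ended by edgeR include Cacna2d2 (adjusted p = 0.0543), Cacnb3 (0.0681), Kcne3 (0.127), Kcnh1 (0.0747), Kcnh3 (0.114), Kcnip2 (0.054), Kcns3 (0.0632), Kcnt1 (0.0667) and Scn3b (0.0609). In H3K4me3 they include Cacna1b (0.0694), Kcne2 (0.104) and Kcnq5 (0.178). No pairing of same-numbered libraries is stated. Their deviations correlated at -0.212, -0.149 and -0.127 in RNA and at 0.0248 in H3K4me3. These values cannot show whether libraries were paired, because deviations were centred within groups of 3 or 2 libraries. Of 25 calls in RNA, 10 held under every alternative run (among them Cacna1a, Kcne2, Kcnab3, Kcnh2, Kcnk3, Kcnk2, Kcnq5 and Cacnb1), and of 25 in H3K4me3, 4 did (Kcnh2 and Cacna1h among them). The 10 count Kcnj16, which the mean CPM filter removes and which passed the count filter through its 48 h libraries, so its call says nothing about stability. The cause of the other losses was not tested, except that leaving out a library lowers the number of samples. Where 1 H3K4me3 library is left out, the lone library of its group is assumed to vary like the other group. Depth limits the 63 genes untested in RNA.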
